A study of Mus musculus with 4 samples.

Results

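Solute carriers are membrane proteins that move sugars, amino acids, organic acids, nucleosides and organic ions across the plasma membrane and the membranes of organelles. Dendritic cells depend on them for fuel, for building blocks and for sensing nutrients at the lysosome. The carriers described here were chosen by name: every probe set with 1 gene symbol in the families Slc1, Slc2, Slc3, Slc5, Slc6, Slc7, Slc16, Slc22, Slc29, Slc36, Slc38 and Slc43. This gave 126 symbols on 226 probe sets, of 18193 symbols on the array. Of the 126, 122 name carriers, and the other 4 (Slc2a4rg-ps, Slc6a19os, Slc7a6os and Slc36a1os) are neighbours, opposite-strand genes or a pseudogene that only carry a carrier's name. They were compared between CD8α+ and CD8α− dendritic cells of the spleen of C57BL/6 mice. Genotype, treatment, age, sex and the method of isolating the cells are not given in the sources used here. CD8α+ cells belong to the lineage of conventional type 1 dendritic cells, which take up dying cells and present their antigens, and CD8α− cells are mostly conventional type 2 cells. The arrays were of the type Affymetrix Murine Genome 430 2.0, 2 per population. No label states that replicate arrays stem from different mice, so p-values reflect spread among these 4 samples alone, and that spread may be technical. In bulk RNA, fewer cells of a type and less RNA per cell cannot be told apart.

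Signals below are MAS5 intensities after quantile normalization, which gives all 4 arrays the same distribution. Values are given for CD8α+ replicates 1 and 2 and then for CD8α− replicates 1 and 2. Differences are on the log2 scale, positive where CD8α+ cells were brighter, ± the limma standard error, with n = 2 arrays per group, and adjusted p-values are Benjamini-Hochberg values over all tested genes. A probe set was taken as above background on an array when it exceeded the brightest Bacillus control there (30.8, 21.8, 28.3 and 34.5). Cd8a itself followed the labels, with deposited signals of 2640 and 3102 in CD8α+ cells against 22 and 19. CD8α− replicate 2 stood apart: the ratio of 3′ to 5′ signal of its Gapdh control was 10.7, against 1.53 to 2.02 on the other arrays. The CD8α− arrays were over 2-fold apart in 16 of 48 tested carriers, and the CD8α+ arrays in 5.

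Of the carriers, 48 were bright enough to be tested (mean signal at or above the median probe set, 23.0) and 74 were not. None of the 48 passed an adjusted p of 0.05 in limma, as was the case for all 10532 tested genes (0%). At an unadjusted p under 0.05, 3 carriers were higher in CD8α+ cells (7.13% of all tested genes were) and 5 were lower (8.82% of all tested genes). The higher ones were the carnitine carriers Slc22a21 and Slc22a5 and the neutral amino acid carrier Slc1a4. The lower ones were the inositol carrier Slc2a13, the hexose carrier Slc2a6, the lactate exporter Slc16a3, the creatine carrier Slc6a8 and the lactate carrier Slc5a12. These were shares of 6.25% and 10.4%. The number lower was 9 with arrays centred on their median and 10 with a common trimmed mean. Of the 48, 28 had groups that did not overlap, 10 higher and 18 lower in CD8α+ cells, beside 53.9% of all tested genes (25.6% higher and 28.3% lower). On the signals as deposited the balance turned, with 18 higher and 10 lower, or 37.5% and 20.8%, beside 50.7% and 9.44% of all tested genes. The median difference of the 48 was -0.08, beside -0.02 for all tested genes. Relative to the median gene it was -0.37 on the deposited scale, -0.40 with a common trimmed mean and -0.38 with arrays centred on their median. These counts moved with the arrays used: with CD8α− replicate 2 left out, 8 carriers were higher and 10 lower, and with CD8α− replicate 1 left out, 8 and 14. They were 3 and 2 with CD8α+ replicate 1 left out, and 2 and 4 with CD8α+ replicate 2 left out. Without CD8α− replicate 1, 8 carriers and 1223 of all genes had an adjusted p under 0.05, and without any other array 0 did. With an array left out, the spread comes from the pair of arrays in the other group alone, and the lone array is assumed to vary like them. The CD8α+ pair was over 2-fold apart in 7.67% of all tested genes and the CD8α− pair in 29.7%, and without CD8α− replicate 1 the lone CD8α− array is the one with the high Gapdh ratio. Members that are bright in 1 group only were tested because of that group, so the counts describe the 48 and not every carrier.

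Upstream sequences are shown for the carriers other than Slc22a21 with an unadjusted p under 0.01, so that those brighter in either population can be set side by side. They are the 250 bases before the RefSeq start (GRCm38.p6), 5′ to 3′ on the gene's strand. Capitals mark a match to the antioxidant response element TGANNNNGC on either strand. Brighter in CD8α+ cells were Slc22a5 at chr11:53891704-53891953 (minus strand) and Slc1a4 at chr11:20332714-20332963 (minus strand). Brighter in CD8α− cells were Slc2a6 at chr2:27027999-27028248 (minus strand), Slc2a13 at chr15:91573262-91573511 (minus strand) and Slc16a3 at chr11:120948817-120949066 (plus strand).
Slc22a5: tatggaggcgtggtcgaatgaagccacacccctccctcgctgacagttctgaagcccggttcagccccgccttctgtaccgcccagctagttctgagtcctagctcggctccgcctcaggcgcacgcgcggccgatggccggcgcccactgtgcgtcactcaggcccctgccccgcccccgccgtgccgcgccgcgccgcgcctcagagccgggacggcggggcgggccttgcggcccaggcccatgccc
Slc1a4: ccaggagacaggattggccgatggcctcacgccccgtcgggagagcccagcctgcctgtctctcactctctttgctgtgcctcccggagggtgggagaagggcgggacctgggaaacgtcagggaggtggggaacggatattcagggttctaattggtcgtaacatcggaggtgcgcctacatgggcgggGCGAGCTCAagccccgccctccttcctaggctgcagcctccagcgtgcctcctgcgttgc
Slc2a6: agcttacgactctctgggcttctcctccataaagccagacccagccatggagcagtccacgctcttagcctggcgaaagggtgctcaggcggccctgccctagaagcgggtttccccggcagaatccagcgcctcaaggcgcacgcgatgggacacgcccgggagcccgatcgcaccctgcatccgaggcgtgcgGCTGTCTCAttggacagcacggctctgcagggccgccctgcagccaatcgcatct
Slc2a13: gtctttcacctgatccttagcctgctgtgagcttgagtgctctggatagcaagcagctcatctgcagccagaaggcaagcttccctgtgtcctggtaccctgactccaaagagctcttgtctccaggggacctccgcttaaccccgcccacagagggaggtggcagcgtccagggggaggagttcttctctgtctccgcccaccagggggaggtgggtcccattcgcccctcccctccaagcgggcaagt
Slc16a3: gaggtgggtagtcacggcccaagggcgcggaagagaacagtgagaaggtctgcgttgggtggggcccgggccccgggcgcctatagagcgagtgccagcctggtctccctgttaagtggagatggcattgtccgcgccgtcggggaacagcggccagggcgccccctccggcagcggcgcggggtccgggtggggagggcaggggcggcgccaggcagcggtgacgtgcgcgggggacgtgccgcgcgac

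These stretches were 61.2% to 73.6% G and C. The antioxidant motif matched in Slc1a4, 60 bases before the start, and in Slc2a6, 55 bases before it, so 1 match fell on each side of the comparison. Its few fixed letters match often, in 35.2% of all 32851 promoters in the table and in 46.8% of the 47 promoters of tested carriers, which stand for 36 of the 48 genes. The E-box CACGTG was found in 6.02% of all promoters and in 4 of those 47 (Slc5a1, Slc16a1, Slc22a4 and Slc38a7), none of them shown above. The amino acid response element TGATGNAAT was in 0.816% of all promoters and in 0 of the 47. All motifs were sought on both strands, and a match describes letters, not binding.

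**Figure D1:**
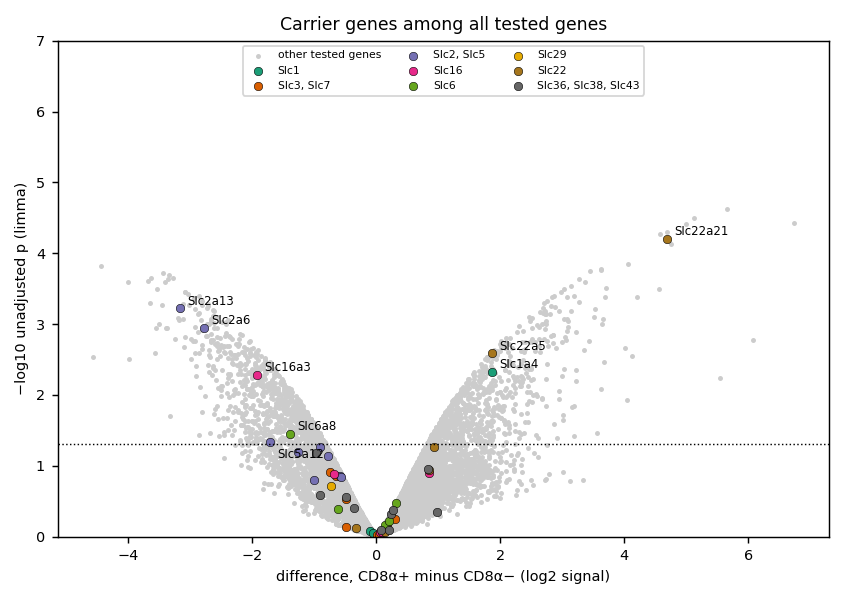
Each point is a tested gene, with the log2 difference between CD8α+ and CD8α− cells on the x axis and -log10 of the unadjusted limma p on the y axis. Carriers are coloured by family, other genes are grey, and the dotted line marks an unadjusted p of 0.05. Slc22a21 lies at the far right of the carriers (4.68) and Slc2a13 and Slc2a6 at the far left (-3.16 and -2.78).

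The organic cation and carnitine family (Slc22) held the largest difference. Slc22a21, also called OCTN3, is known as a carnitine carrier. Its signals were 182 and 213 in CD8α+ cells against 4.14 and 8.38 in CD8α− cells, where neither array was above background. The groups lay far apart, at least 6.30-fold on the background bound, with a fitted difference of 4.68 ± 0.32 (limma, unadjusted p = 6.28e-05, adjusted p = 0.0945). Over the alternative settings its adjusted p ran from 0.0182 to 0.878 and its direction held in each of 13. Slc22a5, the high-affinity sodium-dependent carnitine carrier OCTN2, read 232 and 206 against 60.7 and 59.2. It was above background on all 4 arrays and 3.65-fold brighter in CD8α+ cells (1.87 ± 0.31, adjusted p = 0.122). With single arrays left out, its adjusted p was 0.0467 without CD8α− replicate 1, 0.092 without CD8α− replicate 2, and 0.943 and 0.744 without CD8α+ replicates 1 and 2. Its second probe set was too dim to be tested.

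The ergothioneine carrier Slc22a4 (OCTN1) did not follow its relatives. Its signals of 39.8, 23.1, 55.8 and 13.5 overlapped between the groups (0.14 ± 0.79), and its sign turned with each other scaling of the arrays. Slc22a5, Slc22a21 and Slc22a4 lie side by side on chromosome 11, in that order, among the protein-coding genes of the RefSeq gene table (GRCm38.p6). Looked up after these values were seen, the coding genes that flank the trio were Irf1, which encodes an interferon response factor and whose groups overlapped (0.59 ± 0.59), and the actin-associated Pdlim4. Pdlim4 read 36.9 and 57.8 in CD8α+ cells and lay under the floor in both CD8α− arrays (2.72 ± 0.37, adjusted p = 0.108 in limma). The spread of those CD8α− arrays therefore counted as 0, and Pdlim4 was bright enough to be tested only through its CD8α+ arrays. The remaining tested members of the family gave 0.93 ± 0.36 for Slc22a15, 0.86 ± 0.44 for Slc22a23, and -0.33 ± 0.96 for Slc22a17, a receptor-like member. In all, 4 of 6 had both CD8α+ arrays above both CD8α− arrays (25.6% of all tested genes did) and 0 had them below (28.3%), and the family's median was 0.89. On the signals as deposited, 4 of 6 again lay higher, but 50.7% of all tested genes did so there. With no filter on dim probe sets, the median over all 21 genes of the family was 0.00.

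**Figure D2:**
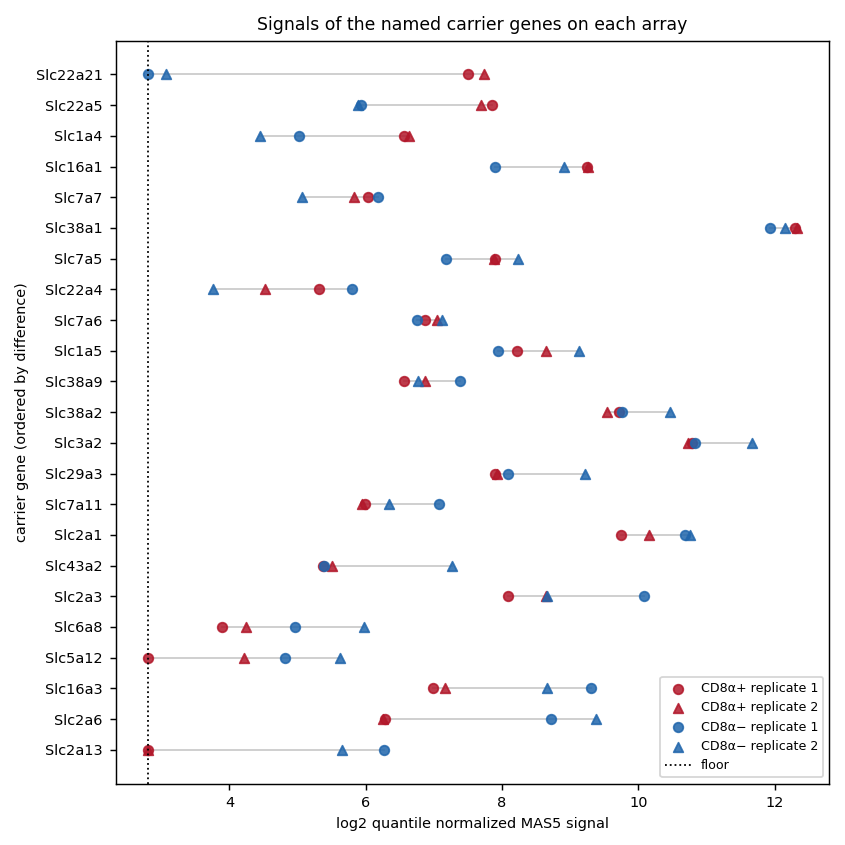
Log2 quantile normalized MAS5 signal (x axis) of the 23 named carriers that were tested (y axis, ordered by difference), with red for CD8α+ and blue for CD8α− arrays, circles for replicate 1 and triangles for replicate 2. The dotted line is the floor of 6.99 on the linear scale. The red and blue pairs separate widely for Slc22a21, Slc22a5 and Slc1a4 at the top and for Slc16a3, Slc2a6 and Slc2a13 at the bottom. Most carriers between them overlap or lie close together.

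Tested sugar and inositol carriers (Slc2 and Slc5) read lower in CD8α+ cells. The Slc2 proteins let hexoses pass down their gradient, and the Slc5 proteins use sodium to draw in glucose, inositol, vitamins or monocarboxylates. All 9 tested members had both CD8α+ arrays below both CD8α− arrays, beside 28.3% of all tested genes, with a median difference of -1.0. On the signals as deposited, 6 of the 9 did so, beside 9.44% of all tested genes. Of the 9, Slc2a10, Slc2a13, Slc5a1 and Slc5a12 were above background on neither CD8α+ array. They were bright enough to be tested only through their CD8α− arrays, so for them the filter favoured this direction. Relative to the median gene, all 9 were negative under each of the 3 other scalings. At an unadjusted p under 0.05 stood 3 of the 9, and none had an adjusted p under 0.05. With no filter on dim probe sets, 18 of 24 were negative and 5 positive, beside 50.9% of all genes negative. With the mean of a gene's probe sets, 8 of 9 were negative.

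Slc2a13 encodes HMIT, which brings in myo-inositol with protons. It read 6.51 and 1.86 in CD8α+ cells against 77.2 and 50.2 in CD8α− cells. Both CD8α+ signals lay under the floor, so their spread counted as 0, and CD8α− cells read at least 2.40-fold higher (-3.16 ± 0.37, adjusted p = 0.104 in limma). Slc2a6, a glucose transporter of lysosomes known from macrophages, read 78.1 and 76.3 against 421 and 667. It was above background on all arrays and 6.87-fold brighter in CD8α− cells (-2.78 ± 0.38, adjusted p = 0.106). With single arrays left out, the adjusted p of both was 0.0445 without CD8α− replicate 1, 0.0865 without CD8α− replicate 2, and 0.878 and 0.710 without CD8α+ replicates 1 and 2. Slc5a12, a sodium-coupled lactate carrier listed here by family although it carries no sugar, read 6.17 and 18.6 against 28.1 and 49.2. Only 1 of those 4 signals was above background (-1.71 ± 0.62, adjusted p = 0.303).

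The main glucose transporters of leukocytes were brighter and differed less. Slc2a1 (GLUT1, the widespread basal glucose transporter) read 860 and 1138 against 1644 and 1736 (-0.77 ± 0.33, adjusted p = 0.355), and its 3 probe sets ran from -1.08 to -0.53. Slc2a3 (GLUT3, a high-affinity glucose transporter) read 272 and 402 against 1084 and 405, so a single CD8α+ array nearly met a CD8α− array (-1.0 ± 0.59, adjusted p = 0.462). Leaving out CD8α− replicate 1 gave -0.29, and leaving out CD8α− replicate 2 gave -1.71. The other tested probe set of Slc2a3 read 273 and 271 against 658 and 575, with no near meeting (-1.18 ± 0.31). Slc5a3, which takes up myo-inositol as an osmolyte, read 130 in both CD8α+ arrays against 202 and 474 (-1.25 ± 0.51). Slc2a10, Slc5a1 and Slc5a2 lay near background, between -0.91 and -0.56. The probe sets of Slc5a2, a glucose carrier best known from kidney, disagreed, since the dimmer read 1.45 ± 0.53.

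**Figure D3:**
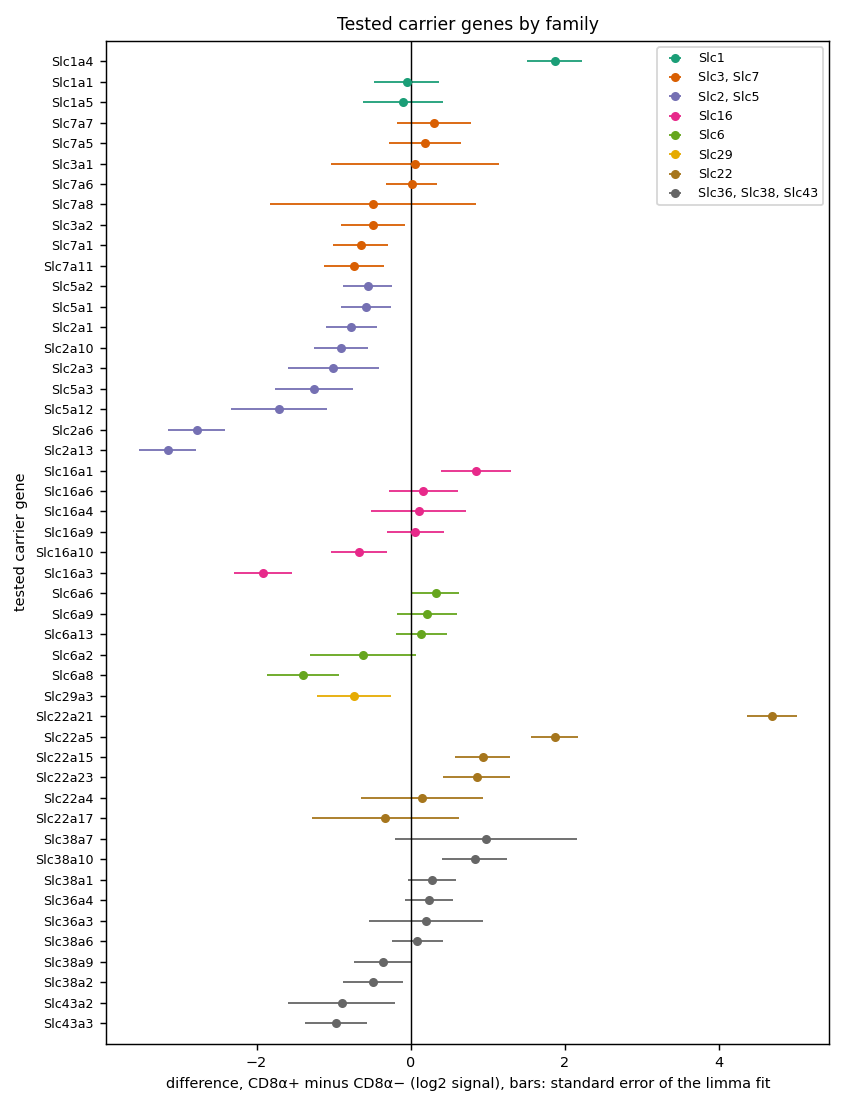
Difference in log2 signal between CD8α+ and CD8α− cells (x axis) for the 48 tested carriers (y axis), grouped and coloured by family; bars are the standard error of the limma fit with 2 arrays per group. The 9 members of Slc2 and Slc5 all lie left of 0, while 5 of 6 members of Slc22 lie right of it.

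Monocarboxylate carriers (Slc16) move lactate, pyruvate and ketone bodies with a proton. Slc16a3 encodes MCT4, the exporter of lactate from glycolytic cells. It read 126 and 143 in CD8α+ cells against 634 and 405 in CD8α− cells. It was 3.77-fold brighter in CD8α− cells (-1.91 ± 0.38, unadjusted p = 0.00522 and adjusted p = 0.151 in limma). On the signals as deposited its groups overlapped, at 164.5 and 200.7 against 672.8 and 191.1. Relative to the median gene, its difference on that scale was -1.65. Slc16a1 (MCT1), which carries lactate either way, read 610 and 611 against 239 and 482 (0.85 ± 0.45, adjusted p = 0.429). Its dimmer probe set, not above background in CD8α+ cells, pointed the other way (-1.72 ± 0.38), so Slc16a1 had no settled direction. The aromatic amino acid carrier Slc16a10 gave -0.67 ± 0.36. Slc16a4, Slc16a6 and Slc16a9 overlapped between the groups, between 0.06 and 0.17.

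Markers of conventional type 1 dendritic cells (6 of 7 tested) summed to 6922 and 6784 in CD8α+ cells against 806 and 547 in CD8α− cells. Those of conventional type 2 cells (6 of 7) summed to 2296 and 2444 against 12953 and 8280. Summed signals of several marker lists for other cell types were also lower in CD8α+ cells. For natural killer cells, 5 of 6 markers were tested and their summed signals were 319 and 459 in CD8α+ cells against 2046 and 959 in CD8α− cells. Gzma, the brightest of them in CD8α− replicate 1, gave -1.66 ± 0.90, and Prf1 pointed the other way (0.14 ± 0.49). For macrophages (5 of 7 tested) the sums were 1277 and 1248 against 2028 and 3204, for monocytes (4 of 6) 1214 and 1263 against 2226 and 2035, and for neutrophils (4 of 6) 6407 and 6987 against 12759 and 9232. For B cells (3 of 6) they were 992 and 1089 against 2084 and 2732, although the B cell marker Ms4a1 was brighter in CD8α+ cells (1.45 ± 0.31). For plasmacytoid dendritic cells (5 of 6) they were 914 and 1047 against 1496 and 2270, and for erythroid cells (1 of 6) 78.4 and 63.2 against 106 and 320. Of the plasmacytoid markers, Tcf4 (-1.06 ± 0.37) and Bst2 (-0.77 ± 0.43) were lower in CD8α+ cells. Siglech (0.66 ± 0.52), Pacsin1 (0.22 ± 0.45) and Ly6d (0.05 ± 0.37) were not, and the median of the 5 was 0.05. The summed signals of T cell markers (4 of 6) overlapped between the groups, at 405 and 596 against 432 and 375. Taken singly, 2 of the 4 lay higher and 1 lower in CD8α+ cells without overlap, and their median was 0.34. Of all tested genes, 25.6% lay higher and 28.3% lower in this way. Of these lists, the monocyte marker Itgam, the B cell marker Pax5 and the erythroid markers Alas2 and Hba-a1 were not above background on any array. Every other marker that has a probe set with 1 gene symbol was above it on at least 1 array. The macrophage marker Vcam1 was brighter in CD8α+ cells (2.48 ± 0.56). The part of any of these cell types in the values of Slc2a6, Slc2a13 and Slc16a3 was not tested.

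Glutamate and neutral amino acid carriers (Slc1) were led by Slc1a4 (ASCT1), which exchanges alanine, serine, cysteine and threonine. It read 94.5 and 99.6 in CD8α+ cells against 32.4 and 21.8, where 1 array was above background (1.87 ± 0.36, unadjusted p = 0.00473 and adjusted p = 0.146 in limma). The groups did not overlap. Its adjusted p was 0.0445 without CD8α− replicate 1, 0.092 without CD8α− replicate 2, and 0.937 and 0.811 without CD8α+ replicates 1 and 2. Its relative Slc1a5 (ASCT2), the glutamine importer of dividing leukocytes, read 299 and 400 against 247 and 562. These groups overlapped (-0.10 ± 0.52), and the sign turned under each other scaling. The glutamate carrier Slc1a1 was near background in both groups (-0.05 ± 0.43).

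The heteromeric and cationic amino acid carriers (Slc3 and Slc7) held none with an unadjusted p under 0.05 among 8 tested. Slc3a2 encodes the heavy chain CD98, which pairs with several Slc7 light chains. It read 1773 and 1704 against 1831 and 3251 (-0.49 ± 0.41), and without CD8α− replicate 2 the difference was -0.075. Of its light chains, Slc7a5 (LAT1, importer of leucine) read 238 and 237 against 145 and 301 (0.18 ± 0.46). Slc7a11 (xCT, which takes up cystine in exchange for glutamate) read 63.7 and 61.9 against 135 and 81.3 (-0.74 ± 0.39, adjusted p = 0.423). Slc7a6 (0.01 ± 0.33) and Slc7a7 (0.30 ± 0.49), which exchange cationic for neutral amino acids, overlapped. The arginine importer Slc7a1 was bright in every array, at 2670 and 2721 against 3455 and 5172 (-0.65 ± 0.36). Slc7a8 and Slc3a1 spread over more than the distance between the groups, with standard errors of 1.34 and 1.09.

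Of the proton-coupled, sodium-coupled and facilitated amino acid carriers (Slc36, Slc38 and Slc43), 10 were tested. None had an unadjusted p under 0.05 on the probe set that stands for the gene. Slc38a1 (SNAT1) was bright on every array. On the probe set that stands for it the populations were close, at 5047 and 5146 against 3908 and 4535 (0.28 ± 0.31). Its other tested probe set gave 0.81. Slc38a2 (SNAT2), which is induced when amino acids run short, read 842 and 746 against 866 and 1421 (-0.49 ± 0.39). Another of its 3 tested probe sets gave -1.45 ± 0.50, at an unadjusted p under 0.05 in limma. Slc38a9, the lysosomal arginine sensor of mTORC1, read 94.6 and 117 against 167 and 109 (-0.36 ± 0.38), and its 6 tested probe sets ran from -0.64 to 1.01. Slc38a10 was positive on each of 6 tested probe sets, from 0.08 to 1.09. Slc43a2 (LAT4), a carrier of branched-chain amino acids, read 41.4 and 45.2 against 42.1 and 154. That distance came from CD8α− replicate 2 alone: the difference of -0.90 ± 0.70 became 0.04 without it (adjusted p = 0.895 in limma) and -1.83 without replicate 1 (adjusted p = 0.0465), and without CD8α+ replicates 1 and 2 the adjusted p was 0.999 and 0.994. Its relative Slc43a3, a carrier of purine nucleobases, gave -0.97 ± 0.40.

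Among the Slc6 carriers, which use sodium and chloride, Slc6a8 imports creatine. It read 14.9 and 19.0 in CD8α+ cells, not above background, against 31.1 and 62.7 (-1.40 ± 0.47, at least 1.70-fold, adjusted p = 0.275 in limma). The taurine carrier Slc6a6 was bright and close between groups, at 821 and 841 against 678 and 648 (0.33 ± 0.30). Slc6a2, Slc6a9 and Slc6a13 overlapped between the groups. Of 4 nucleoside carriers (Slc29), 1 was tested: the lysosomal Slc29a3 read 239 and 244 against 273 and 593 (-0.73 ± 0.48). Leaving out CD8α− replicate 1 gave -1.30, and leaving out CD8α− replicate 2 gave -0.17.

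The 77 symbols that were not tested are dim. Across all their probe sets the highest deposited signal was 65.9. Of the 77, 55 were above background on no array, and for 0 of them did any probe set exceed background on both arrays of a group. They include 15 of 20 Slc6, 15 of 21 Slc22, 15 of 24 Slc2 and Slc5, 9 of 17 Slc3 and Slc7, 7 of 13 Slc16, 6 of 16 Slc36, Slc38 and Slc43, 4 of 7 Slc1 and 3 of 4 Slc29 genes, besides 3 of the 4 that only carry the name. The equilibrative nucleoside transporter Slc29a1 (13.3, 21.2, 30.9 and 26.4) and the lysosomal amino acid carrier Slc36a1 (5.38, 28.1, 18.0 and 6.99) are among them. Array signals this low do not show that a gene is silent. Slc7a6os, the tested symbol that names no carrier, overlapped between the groups (0.97 ± 0.67).

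Several tested probe sets read 20 of the 49 tested symbols. In 15 of the 20 all tested probe sets gave the same sign, and in 5 (Slc1a5, Slc5a2, Slc7a6, Slc16a1 and Slc38a9) they did not. In Slc2a1, Slc2a3, Slc5a2, Slc16a1 and Slc38a2, a probe set other than the one that stands for the gene had an unadjusted p under 0.05. Slc22a21, Slc22a5, Slc2a13, Slc2a6, Slc1a4, Slc16a3, Slc6a8 and Slc5a12, the carriers counted above at an unadjusted p under 0.05, each rest on a single tested probe set.

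**Figure D4:**
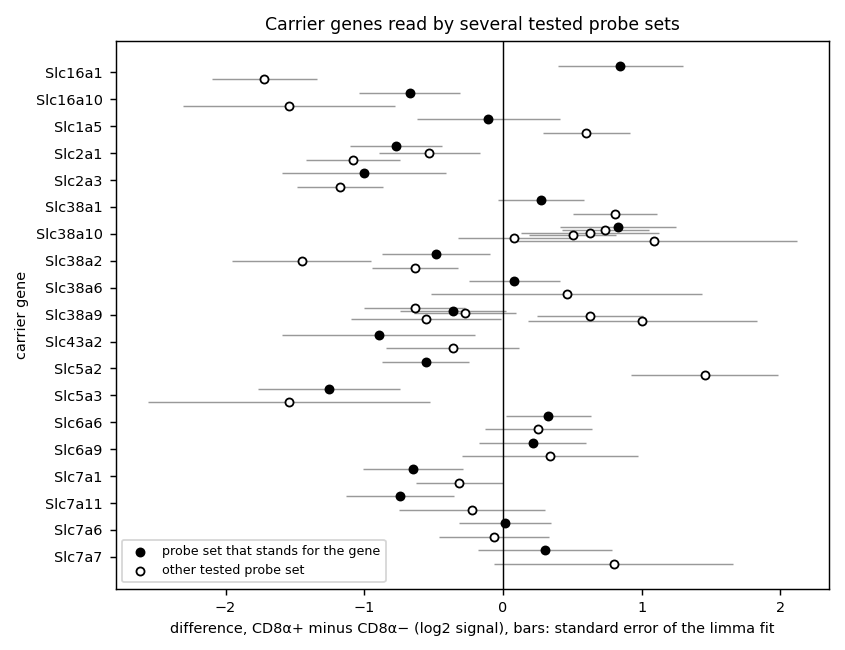
Difference in log2 signal (x axis) for each tested probe set of the 19 carriers read by several (y axis); filled points stand for the gene and open points are its other tested probe sets, with the standard error of the limma fit as bars. The 3 probe sets of Slc2a1 and both of Slc2a3 lie left of 0, while those of Slc16a1 and Slc5a2 lie on opposite sides.

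Partners and regulators of the carriers were listed apart, and 24 of 28 were tested. None had an adjusted p under 0.05 in limma. At an unadjusted p under 0.05, 2 were higher in CD8α+ cells (7.13% of all tested genes were) and 3 lower (8.82%), and the median was 0.37. Gclc, the rate-limiting enzyme of glutathione synthesis, read 665 and 634 in CD8α+ cells against 117 and 80.5, a 6.70-fold difference (2.75 ± 0.35, adjusted p = 0.104). Gclm, also on this list, gave 0.69 ± 0.44. Keap1, which holds the oxidative stress factor NRF2 in check, gave 1.20 ± 0.35. Nfe2l2, the gene of NRF2, gave 1.27 ± 0.55 with an unadjusted p of 0.0745 in limma. It read 1361 and 1270 against 875 and 341, lowest on CD8α− replicate 2, the array with the high Gapdh ratio. Embigin (Emb), which escorts monocarboxylate carriers to the membrane, read 133 and 104 against 348 and 331, 2.89-fold brighter in CD8α− cells (-1.53 ± 0.33, adjusted p = 0.166). Basigin (Bsg), the other escort, gave 0.35 ± 0.34. Txnip (-1.23 ± 0.34) and its relative Arrdc3 (-1.21 ± 0.32) encode arrestins, of which the first promotes the removal of glucose transporters from the surface. The median of this list was -0.06 without CD8α− replicate 2. The counts were 1 higher and 0 lower without either CD8α+ array, 11 and 4 without CD8α− replicate 1, and 5 and 7 without CD8α− replicate 2.

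Solute carriers of other families were listed as well, and 27 of 30 were tested. At an unadjusted p under 0.05, 5 were higher in CD8α+ cells and 3 lower, beside the same 7.13% and 8.82% of all tested genes, and none had an adjusted p under 0.05. The endosomal sodium-proton exchanger Slc9a9 read 470 and 525 in CD8α+ cells against 133 and 104, a 4.22-fold difference (2.08 ± 0.33, adjusted p = 0.119). The phagosomal metal exporter Slc11a1 (NRAMP1) read 983 and 923 against 533 and 369 (1.10 ± 0.35). The vitamin C importer Slc23a2 (1.66 ± 0.47), the fatty acid carrier Slc27a1 (1.08 ± 0.34) and the zinc importer Slc39a8 (1.17 ± 0.39) were the other higher ones. These lay near background in CD8α− cells. Slc23a2 and Slc27a1 were above it on 1 CD8α− array each. Slc39a8 was above it on neither, which left a bound of at least 1.20-fold. Slc15a3, a lysosomal carrier of histidine and bacterial peptides, read 398 and 461 against 816 and 1546 (-1.39 ± 0.44). The choline carrier Slc44a2 (-1.35 ± 0.31) and the sugar-phosphate carrier Slc37a2 (-0.91 ± 0.31) were lower too. Without either CD8α+ array, 1 member of this list was higher and 0 lower, against 13 and 3 without CD8α− replicate 1 and 7 and 7 without CD8α− replicate 2.

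**Figure D5:**
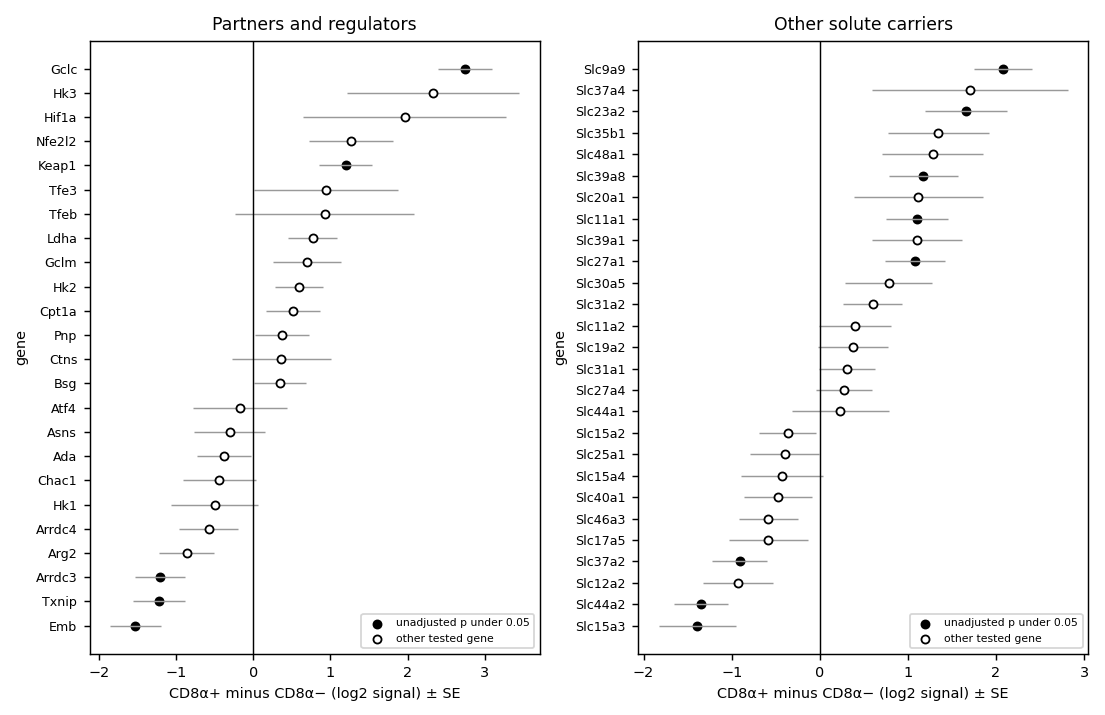
Difference in log2 signal between CD8α+ and CD8α− cells (x axes) ± standard error of the limma fit for 24 partners and regulators (left) and 27 other solute carriers (right); filled points have an unadjusted p under 0.05. Gclc and Slc9a9 lie farthest right in their panels, and Emb and Slc15a3 farthest left.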

How the data were processed

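The authors deposited 1 intensity per probe set and array on a linear scale, 45101 probe sets in all. They were MAS5 signals, per the submitters' processing notes, and the design text adds the programs Microarray Suite and GeneSpring. No source used here gives a scaling target. RNA preparation is described differently by the labels' protocols (Trizol, cRNA from total RNA) and by the design text (purified mRNA, Ovation cDNA). These accounts were not reconciled.

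The platform annotation gave 34945 probe sets 1 symbol, 932 several and 9160 none, besides 64 controls. The deposited intensities were not on a common scale, so log2 values were quantile normalized, with a floor at the 25th percentile (6.99). Probe sets with a mean signal of at least 23.0 (22519, standing for 10532 genes) were fitted with limma (version 3.58.1, under R 4.3.3), using lmFit and eBayes, two-sided, with Benjamini-Hochberg adjustment. Each gene was read by its tested probe set of highest mean signal, avoiding _x_at sets where it had another. Folds written "at least" set the brighter group against the background bound, the brightest Bacillus control. The fit was tested on simulated data. Alternatives changed the scaling, floor, filter, variance trend, probe set rule, replicate block and arrays used. Differences under the 3 other scalings are relative to the median gene.

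Named carriers are those with an unadjusted p under 0.05 plus a list of well studied carriers of immune cells, and other members are given to complete their families. The members and lists were chosen with earlier results of these data known.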

Additional observations from a re-analysis of the deposited data

How the results depend on the processing

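With 2 arrays per group, adjusted p-values turned on single arrays and settings, and signals near background limit what dim carriers can show. Of 23 named carriers, 16 kept their direction under every alternative run, at most 13 each. Relative to the median gene, which shifted by 0.67 on the deposited scale, -0.17 with a common trimmed mean and 0.69 with arrays centred on their median, Slc1a5 reversed to 0.21, 0.25 and 0.19, and Slc22a4 to -0.35, -0.31 and -0.37. The carriers' median became -0.37, -0.40 and -0.38. With the mean of a gene's probe sets, Slc16a1 read -0.44, Slc1a5 0.25 and Slc7a6 -0.025. Leaving out each array in turn gave -0.70 to 0.49 for Slc1a5, -0.88 to 1.16 for Slc22a4, -1.83 to 0.041 for Slc43a2, -0.34 to 0.71 for Slc7a5, -0.17 to 0.20 for Slc7a6, -0.26 to 0.86 for Slc7a7 and -0.23 to -0.056 for the carriers' median.

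The number of all genes with an adjusted p under 0.05 was 86 with arrays centred on their median, 73 with an intensity trend, 61 with a stricter filter and 0 to 1223 with an array left out. For carriers it was 2 (Slc22a21 and Slc2a13), 2 (Slc22a21 and Slc2a6), 1 (Slc22a21) and 0 to 8. At an unadjusted p under 0.05, 6 carriers were higher and 15 lower with no filter, 5 and 10 with a common trimmed mean, and 2 to 8 and 2 to 14 with an array left out. With arrays centred on their median, or with the mean of probe sets, 9 were lower. Of the other solute carriers, 1 was higher and 0 lower on the deposited scale, 2 were higher with a stricter filter, and 1 to 13 were higher and 0 to 7 lower with an array left out. Of the partners and regulators, 4 were higher with an intensity trend, with the mean of probe sets and with no filter, 5 with a common trimmed mean, 0 were lower on the deposited scale, and 1 to 11 were higher and 0 to 7 lower with an array left out. The cause of these shifts was not tested.

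The labels of same-numbered arrays share only a number, and the deviations of these arrays correlated at r = 0.0311 over 22519 probe sets. That value cannot show whether they were prepared together. With the replicate block, 15 of all genes and 1 carrier (Slc22a21, adjusted p = 0.0278 in limma) had an adjusted p under 0.05, 3 other solute carriers were higher and 5 partners and regulators were higher at an unadjusted p under 0.05.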
